A study of Homo sapiens with 40 samples.

Results

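Levels of 9 heat shock chaperone and co-chaperone genes, HSPA6, HSPA1A, HSPA1B, HSPA8, DNAJB1, HSPH1, HSP90AA1, HSPB1 and BAG3, and of HSF1, the gene of the factor that switches such genes on, were measured by RNA sequencing in U2OS cells. They were taken as a list of symbols that was chosen with earlier results of these data known. They are 10 of the 63152 Ensembl genes counted. U2OS is a human osteosarcoma line, and these cells carry MYC under a TetOn promoter, which doxycycline (Dox) turns on. The cells were infected with a pGIPZ vector carrying either a control hairpin (shNTC), hairpin 3 or 5 against CTR9 (shCTR9), or hairpin 3 or 4 against CDC73 (shCDC73), and were selected with puromycin at 0.2 µg/ml. Each of these 5 cell populations then received ethanol (EtOH) or 1 µg/ml of Dox for 24 h, and 4 libraries were made of each of the 10 groups, 40 in all. Every group, controls included, carries the MYC transgene and a hairpin. With no cells that lack the transgene given Dox, an effect of MYC and an effect of Dox itself cannot be told apart. Both hairpin targets encode parts of the PAF1 complex, which travels with RNA polymerase II during elongation.

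Chaperones of the HSP70 family bind unfolded stretches of proteins and release them in cycles driven by ATP. J-domain proteins such as DNAJB1 bring substrates to HSP70, and HSP110 proteins such as HSPH1 and BAG proteins such as BAG3 speed the exchange of its nucleotide. HSP90 acts later, on proteins that are nearly folded, and small heat shock proteins such as HSPB1 hold unfolded proteins without using ATP. HSF1 is kept inactive by chaperones in unstressed cells and, once released, forms trimers that bind repeats of the unit GAA in alternating orientation. HSPA8 is made constantly, HSPA1A and HSPA1B are made at a low level and induced by stress, and HSPA6 is nearly silent in most unstressed human cells.

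Promoters of 9 of the 10 genes, all but HSF1 and 12 in all because some have more than 1 start, were found in the RefSeq table of build GRCh38.p14, which gives 250 bases before and 50 after each start. The letters searched for were 3 alternating units, GAANNTTCNNGAA or TTCNNGAANNTTC, and 2 units, GAANNTTC or TTCNNGAA, which lie within the longer form. Each letter pattern and its reverse complement were covered, so both strands were read. The promoters of HSPA6, HSPA8 and, at its second listed start, HSP90AA1 held the 3-unit form, which 0.490% of all 35116 promoters in the table hold. The 2-unit form was in 7 of the 9 genes, namely these 3, HSPA1A, HSPA1B, DNAJB1 and HSPB1, and in 13.5% of all promoters. The MYC motif CACGTG was in none of the 12 promoters and in 7.26% of all. A match is a description of the letters in these windows only. The 250 bases before the start are shown for the gene with the widest range of levels, for the near-identical pair, for the constantly made HSP70 gene and for the J-domain gene, with matches in capitals.
HSPA6 (chr1:161524290-161524539, plus strand): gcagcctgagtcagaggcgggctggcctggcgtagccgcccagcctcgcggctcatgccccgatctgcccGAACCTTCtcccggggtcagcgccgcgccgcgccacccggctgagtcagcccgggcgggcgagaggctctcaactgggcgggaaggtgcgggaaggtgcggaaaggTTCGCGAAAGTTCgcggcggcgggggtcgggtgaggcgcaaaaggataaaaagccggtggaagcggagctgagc
HSPA1A (chr6:31815293-31815542, plus strand): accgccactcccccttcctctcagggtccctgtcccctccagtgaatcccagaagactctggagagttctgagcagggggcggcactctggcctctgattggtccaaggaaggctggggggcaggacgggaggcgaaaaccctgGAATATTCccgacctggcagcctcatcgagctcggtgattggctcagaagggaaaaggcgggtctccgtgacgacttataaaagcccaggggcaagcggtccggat
HSPA1B (chr6:31827488-31827737, plus strand): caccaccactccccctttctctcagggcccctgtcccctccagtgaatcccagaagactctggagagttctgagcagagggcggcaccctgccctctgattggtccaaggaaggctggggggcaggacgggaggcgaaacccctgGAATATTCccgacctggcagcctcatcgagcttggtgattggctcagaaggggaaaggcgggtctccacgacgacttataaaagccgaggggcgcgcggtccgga
HSPA8 (chr11:123062137-123062386, minus strand): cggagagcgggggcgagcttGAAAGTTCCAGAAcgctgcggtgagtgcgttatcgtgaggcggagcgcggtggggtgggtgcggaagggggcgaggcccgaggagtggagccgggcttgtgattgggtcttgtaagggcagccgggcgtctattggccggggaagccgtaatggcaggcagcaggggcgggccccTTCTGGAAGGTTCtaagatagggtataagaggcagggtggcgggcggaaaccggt
DNAJB1, second of 3 listed starts (chr19:14518398-14518647, minus strand): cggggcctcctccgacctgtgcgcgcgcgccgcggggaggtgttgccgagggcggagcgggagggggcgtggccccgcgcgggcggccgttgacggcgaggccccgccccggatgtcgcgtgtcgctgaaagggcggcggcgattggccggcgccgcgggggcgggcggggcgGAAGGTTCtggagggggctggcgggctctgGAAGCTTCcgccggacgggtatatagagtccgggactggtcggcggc
In HSPA6 the 3-unit match begins 74 bases before the start and a 2-unit match 180 bases before it. In HSPA8 the 3-unit matches begin 230 and 55 bases before the start. The HSPA1A and HSPA1B promoters hold the same 8 letters 106 and 105 bases before their starts and are identical at 92.6% of 299 aligned bases. In DNAJB1 the 2-unit matches begin 77 and 47 bases before the start.

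Several of these genes share sequence with relatives, which bears on how their reads could be counted. In the longest GENCODE v29 transcript of each gene, every stretch of 50 bases was looked up in all other genes. For HSPA6, 45.5% of the stretches also occur in HSPA7, a neighbouring HSPA6 copy, and none occurs in HSPA1A or HSPA1B. HSPA7 is listed at 0 reads in all 40 libraries. HSPE1, the mitochondrial co-chaperonin gene that most cells use, is listed at 0 in all 40 as well, so a listed 0 is not read here as a silent gene. For HSPA1A and HSPA1B the shares were 72.6% and 73.5%, which is nearly all sequence that the 2 genes have in common. HSPA8 shared 15.4% with 11 other entries, most of them named as its pseudogenes, HSP90AA1 21.4%, HSPB1 6.97% and DNAJB1 2.57%, while HSPH1 and BAG3 shared none. How reads with more than 1 match were counted, and whether strand was used, is not given in the sources used here. In the annotation, exons of DNAJB1 overlap those of TECR, exons of HSP90AA1 those of WDR20 and exons of HSF1 those of DGAT1 on the opposite strand, so part of their reads may belong to these neighbours. In the deposited counts HSPA1A took between 47.9% and 51.4% of the reads of the pair in a library, and the 95% Wilson interval of that share held 50% in 40 of 40 libraries. The counts of these 2 entries are therefore given side by side and their summed level is used beside them.

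**Figure D1:**
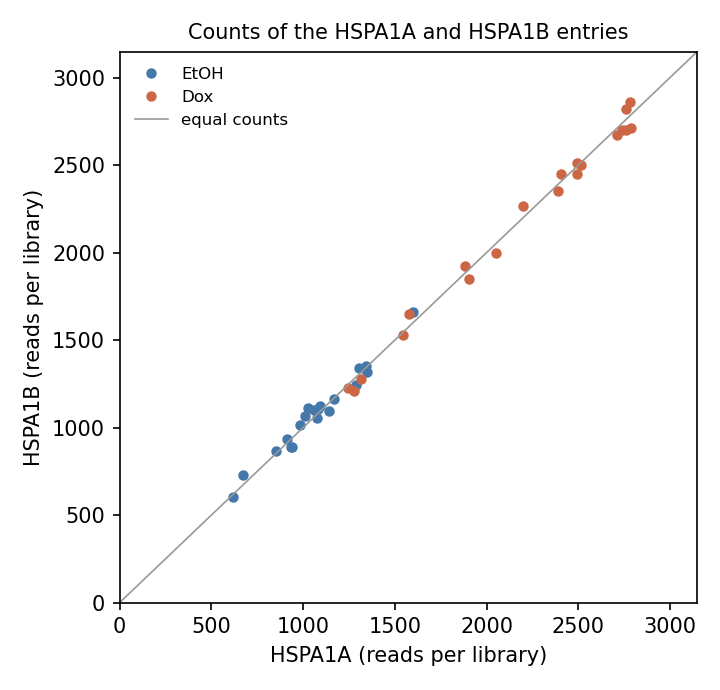
Read counts of HSPA1B (y axis, reads per library) against those of HSPA1A (x axis, reads per library) in the 40 libraries, coloured by treatment, with the line of equal counts. All points lie near the line, with HSPA1A holding 47.9% to 51.4% of the pair.

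Libraries held 877323 to 1532617 counted reads with a median of 1213230.5. Levels are given as CPM, the share of a library's reads in the usual unit of that name, with library totals scaled by TMM. MYC lay at 441 to 738 CPM in the EtOH libraries, at 14360.4 to 15856 CPM in Dox shNTC and at 7854 to 12183 CPM in the Dox libraries of both knockdowns. The log2 fold change of CTR9 in shCTR9 against shNTC cells was -1.87 ± 0.11 in EtOH and -1.99 ± 0.11 in Dox, and that of CDC73 in shCDC73 against shNTC cells was -2.12 ± 0.19 and -1.87 ± 0.20 (4 targeted comparisons, adjusted p at most 1.26e-10, edgeR). In the shCDC73 groups CTR9 had higher means than in shNTC. These were 183 and 154 CPM with hairpins 3 and 4 in EtOH, against 73.9 CPM, and 196 and 141 CPM in Dox, against 87.9 CPM. Of the mesenchymal and osteoblast markers looked at, 6 of 8 reached a mean of 1 CPM (ALPL and COL1A2 did not), with sums per library of 806 to 2033 CPM. The epithelial markers did so for 4 of 5 genes, with sums of 182 to 481 CPM, and the blood markers for 0 of 6, with 4 at 0 reads. In 3 libraries, replicates 1 and 3 of EtOH shCDC73 hairpin 4 and replicate 1 of EtOH shCTR9 hairpin 3, short transcripts were read more often. The slope of a library's deviation from the mean of all libraries on log2 exon length was -0.181 to -0.141 in these and -0.0761 to 0.0584 in the other 37. Calls that changed when these 3 libraries were left out, and the HSPB1 tests they touch, are given both ways.

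HSPA6 had the widest range of the 10 genes, from a group mean of 3.63 CPM in EtOH shNTC to 146 CPM in Dox shCTR9 hairpin 3, a ratio of 40.2. In EtOH shNTC the 4 libraries had 3.38, 3.83, 3.94 and 3.36 CPM, and in Dox shNTC 31.6, 21.2, 20.5 and 25.2 CPM. In EtOH the shCTR9 libraries had 6.48, 4.45, 5.11 and 5.31 CPM with hairpin 3 and 8.59, 3.83, 3.07 and 6.08 CPM with hairpin 5. The shCDC73 libraries in EtOH had 2.68, 9.99, 4.50 and 5.20 CPM with hairpin 3 and 5.20, 3.51, 9.33 and 6.65 CPM with hairpin 4. All EtOH groups were thus low and, apart from EtOH shNTC against EtOH shCTR9 hairpin 3, neighbours in the order of means overlapped. These EtOH levels rest on 3 to 12 reads per library, against 22 to 44 in Dox shNTC and 84 to 203 in the Dox knockdown libraries. In Dox the shCTR9 libraries had 141, 156, 162 and 123 CPM with hairpin 3 and 125, 124, 116 and 117 CPM with hairpin 5. The shCDC73 libraries in Dox had 156, 127, 156 and 115 CPM with hairpin 3 and 73.1, 69.6, 98.3 and 84.1 CPM with hairpin 4. Every Dox knockdown library lay above every Dox shNTC library, and every Dox shNTC library above every EtOH library. Dox shCDC73 hairpin 4 lay apart from both its neighbours in the order, while Dox shCDC73 hairpin 3 overlapped with hairpins 5 and 3 of Dox shCTR9.

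**Figure D2:**
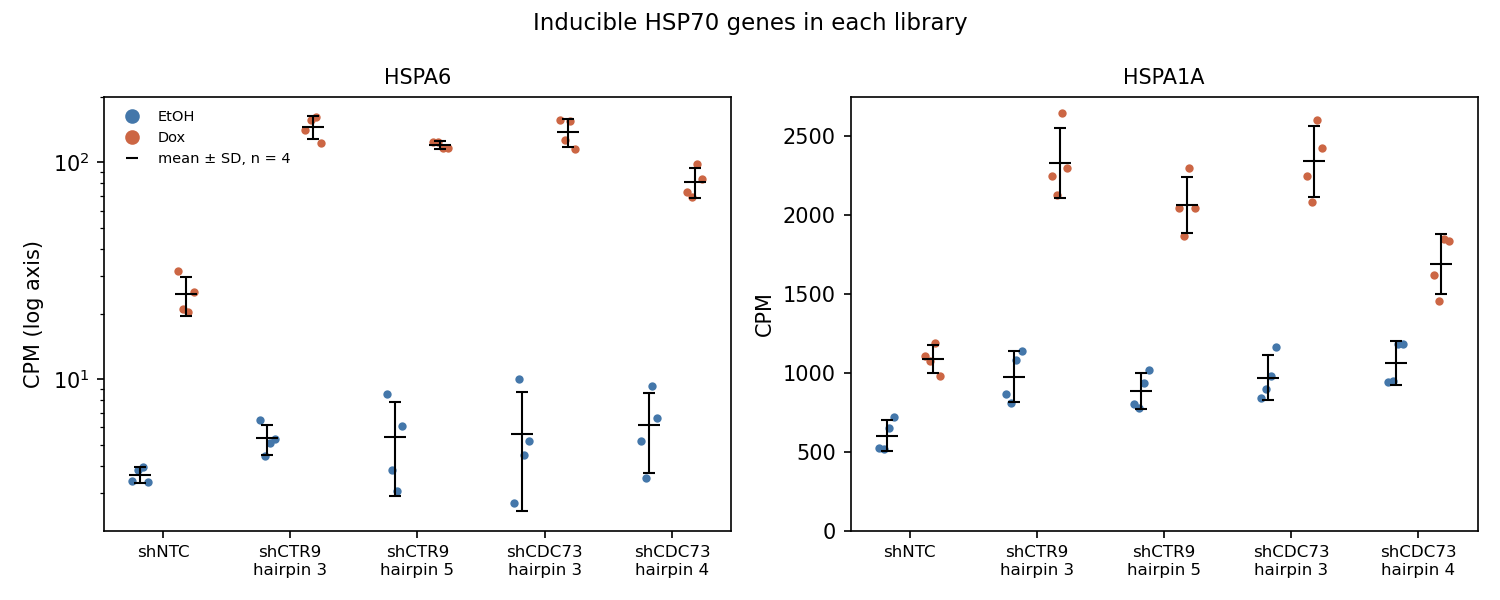
Levels of HSPA6 (left, CPM on a log axis) and HSPA1A (right, CPM on a linear axis from 0) in each of the 40 libraries, by hairpin (x axis) and treatment (colour), with the mean ± SD of 4 libraries. HSPA6 was 24.6 CPM on average in Dox shNTC and 81.3 to 146 CPM in the Dox knockdown groups, and HSPA1A was 1088 and 1688 to 2338 CPM.

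HSPA6 rose with Dox in every cell population. The log2 fold change was 2.73 ± 0.29 in shNTC cells, 4.59 ± 0.15 in shCTR9 cells and 4.17 ± 0.15 in shCDC73 cells, which are ratios of group means of 6.79, 24.8 and 18.7 (adjusted p = 6.40e-10, 9.77e-30 and 1.37e-27, edgeR's quasi-likelihood test with Benjamini-Hochberg adjustment over 12557 genes, which is the test behind every adjusted p here). In Dox, HSPA6 was 5.40-fold higher in shCTR9 than in shNTC cells (log2 fold change 2.41 ± 0.14, adjusted p = 5.00e-19) and 4.46-fold higher in shCDC73 cells (2.08 ± 0.15, adjusted p = 1.55e-16). In EtOH the same comparisons gave 0.55 ± 0.35 and 0.65 ± 0.34, which did not pass (adjusted p = 0.215 and 0.128), with 95% intervals of -0.14 to 1.24 and -0.03 to 1.32. In RNA from whole cultures, more RNA per cell and a larger share of cells with the RNA cannot be told apart. HSPA7 is listed at 0 reads throughout, so summing it with HSPA6 leaves the HSPA6 counts unchanged and does not test the effect of the shared sequence.

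HSPA1A, which together with HSPA1B encodes the main stress-induced HSP70 protein, was already abundant in EtOH. In EtOH shNTC its libraries had 523, 514, 647 and 717 CPM and in Dox shNTC 1108, 1071, 1191 and 981 CPM, with no overlap. In EtOH it had 866, 808, 1081 and 1140.0 CPM with shCTR9 hairpin 3 and 801, 774, 933 and 1018 CPM with hairpin 5. With shCDC73 in EtOH it had 838, 896, 977 and 1163 CPM for hairpin 3 and 938, 947, 1181 and 1181 CPM for hairpin 4. All 16 EtOH knockdown libraries were above the 4 EtOH shNTC libraries, and the highest EtOH knockdown group overlapped with Dox shNTC. In Dox it had 2248, 2124, 2642 and 2295 CPM with shCTR9 hairpin 3 and 2045, 1869, 2294 and 2040.1 CPM with hairpin 5. With shCDC73 in Dox it had 2248, 2082, 2602 and 2421 CPM for hairpin 3 and 1619, 1453, 1848 and 1831 CPM for hairpin 4. The Dox knockdown libraries were thus the highest of all, above every library of Dox shNTC and of EtOH.

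HSPA1A rose with Dox by a log2 fold change of 0.86 ± 0.12 with the control hairpin, 1.24 ± 0.08 with shCTR9 and 0.97 ± 0.08 with shCDC73 (adjusted p = 5.54e-07, 8.63e-16 and 2.14e-12). HSPA1A was also higher in the knockdowns than in shNTC cells, in EtOH by 0.63 ± 0.10 for shCTR9 and 0.76 ± 0.10 for shCDC73 and in Dox by 1.01 ± 0.10 and 0.87 ± 0.10 (adjusted p at most 3.45e-06). HSPA1B gave 0.78, 1.21 and 0.98 for Dox and 0.61, 0.72, 1.04 and 0.91 for the knockdowns in the same order, all 7 past the threshold. The summed level of the HSPA1A and HSPA1B pair was 1215 ± 197 CPM in EtOH shNTC (SD, n = 4), 2146 ± 158 in Dox shNTC, 1795 to 2124 CPM in the EtOH knockdown groups and 3407 to 4665 CPM in the Dox knockdown groups. Summed into 1 entry, HSPA1A and HSPA1B had log2 fold changes with Dox of 0.82, 1.23 and 0.98.

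HSPA8, the constantly made HSP70 gene, was the most abundant of the 10 per length, at 659 CPM per kilobase of exon in EtOH shNTC. On that scale HSPB1 had 359, HSP90AA1 305, HSPA1B 244 and HSPA1A 242 CPM per kilobase, while DNAJB1, BAG3, HSPH1 and HSF1 had 44.7 to 59.6 and HSPA6 had 1.53. HSPA8 moved the opposite way from HSPA1A in the EtOH knockdowns. Its libraries had 3266, 3042, 3228 and 3241 CPM in EtOH shNTC and 2161 to 2865 CPM in the 16 EtOH knockdown libraries, with no overlap. In Dox it had 3062, 2944, 3238 and 2977 CPM in shNTC and 2699.8 to 3233 CPM in the 16 knockdown libraries, which overlap. In EtOH it fell by 0.37 ± 0.06 on the log2 scale with shCTR9 and by 0.35 ± 0.06 with shCDC73 (adjusted p = 4.59e-07 and 1.16e-06). In Dox its knockdown values were -0.09 ± 0.06 and -0.04 ± 0.06 (adjusted p = 0.23 and 0.607). With Dox HSPA8 rose both in shCTR9 cells, by 0.22 ± 0.05, and in shCDC73 cells, by 0.24 ± 0.05 (adjusted p = 0.000457 and 0.000102), and its value in shNTC cells was -0.06 ± 0.07 (adjusted p = 0.566). The HSPA8 rises were not past the threshold for hairpin 5 against CTR9 by itself (0.16, adjusted p = 0.146) or for hairpin 4 against CDC73 by itself (0.17, adjusted p = 0.0761).

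DNAJB1, the J-domain partner of stress-induced HSP70, was higher in the knockdowns in both treatments. In shNTC its libraries had 197, 208, 232 and 239 CPM in EtOH and 197, 203, 216 and 198 CPM in Dox, which overlap. In EtOH it had 245, 254, 301 and 287 CPM with shCTR9 hairpin 3, 255, 214, 284 and 282 CPM with hairpin 5, 259, 265, 300.4 and 306 CPM with shCDC73 hairpin 3 and 265, 275, 355 and 319.9 CPM with hairpin 4. In Dox the 16 knockdown libraries had 298 to 382 CPM, with group means of 326 to 361 CPM. In Dox every knockdown library was thus above every shNTC library, while in EtOH replicate 2 of shCTR9 hairpin 5 fell among the shNTC libraries and every shCDC73 library was above them. DNAJB1 was higher than in shNTC cells by 0.27 ± 0.08 (shCTR9) and 0.42 ± 0.08 (shCDC73) in EtOH and by 0.74 ± 0.09 and 0.76 ± 0.09 in Dox (adjusted p = 0.00663, 5.31e-05, 9.14e-10 and 3.49e-10). The shCTR9 call in EtOH ended without EtOH shNTC replicate 1 (adjusted p = 0.0562). With Dox DNAJB1 rose in shCTR9 (0.36 ± 0.07) and shCDC73 cells (0.23 ± 0.07), and its value in shNTC cells was -0.11 ± 0.10 (adjusted p = 7.99e-05, 0.00999 and 0.51). The rise in shCDC73 cells was not past the threshold with hairpin 4 alone (0.11 ± 0.09, adjusted p = 0.449).

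HSPH1, the HSP110 gene, followed a similar course to DNAJB1, with smaller differences between knockdown and shNTC cells in Dox. It had 439.8, 423, 506 and 447 CPM in EtOH shNTC and 449, 475, 484 and 510.1 CPM in Dox shNTC. In the knockdowns it ranged over 446 to 690.2 CPM in EtOH and 563 to 791 CPM in Dox, and every Dox knockdown library lay above Dox shNTC. In EtOH all libraries of both shCTR9 hairpins and of shCDC73 hairpin 3 lay above EtOH shNTC, and shCDC73 hairpin 4, at 446 to 516 CPM, overlapped with it. HSPH1 was higher than in shNTC cells by 0.31 ± 0.07 and 0.32 ± 0.07 in EtOH and by 0.46 ± 0.07 and 0.46 ± 0.07 in Dox, for shCTR9 and shCDC73 (adjusted p at most 0.00031). With Dox HSPH1 rose by 0.22 ± 0.06 with either knockdown (adjusted p = 0.00314 and 0.00379), against 0.08 ± 0.08 in shNTC cells, which did not pass (adjusted p = 0.57). These rises were not past the threshold for hairpin 5 against CTR9 by itself (0.20, adjusted p = 0.148), for hairpin 3 against CDC73 by itself (0.17, adjusted p = 0.21) or, for shCDC73, when replicate 2 of every group was left out (0.20, adjusted p = 0.0552). Its EtOH shCDC73 call came from hairpin 3 (0.54 ± 0.08), while hairpin 4 alone gave 0.10 ± 0.08 (adjusted p = 0.367).

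BAG3, the co-chaperone that links HSP70 to small heat shock proteins and to autophagy, rose with Dox. It had 145, 123, 145 and 185 CPM in EtOH shNTC and 178, 196, 180.1 and 187 CPM in Dox shNTC, where the highest EtOH library lay among the Dox ones. It had 128 to 200.3 CPM in the EtOH and 181 to 247 CPM in the Dox knockdown libraries. The log2 fold change with Dox was 0.31 ± 0.10 with the control hairpin, 0.45 ± 0.07 with shCTR9 and 0.36 ± 0.07 with shCDC73 (adjusted p = 0.0275, 6.54e-06 and 0.000253). The call in shNTC cells ended when any 1 of 5 libraries was left out, Dox shNTC replicates 2 and 4 and EtOH shNTC replicates 1, 2 and 3 (adjusted p between 0.0567 and 0.148). Against shNTC, BAG3 was past the threshold only in shCDC73 cells in Dox (0.21 ± 0.09, adjusted p = 0.0479), a call that ended when any 1 of 9 of the 12 libraries compared was left out (adjusted p between 0.0605 and 0.112). In EtOH the shCDC73 value of BAG3 passed without EtOH shNTC replicate 4 (0.29, adjusted p = 0.0112).

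HSPB1, the small heat shock protein HSP27, was higher in the knockdowns, and its highest values were in the 3 libraries rich in short transcripts. It had 566, 606, 560.5 and 616 CPM in EtOH shNTC and 534, 499, 440.4 and 437 CPM in Dox shNTC, with no overlap. In EtOH it had 1284, 641, 1008 and 945 CPM with shCTR9 hairpin 3, 835, 700.2, 692 and 704 CPM with hairpin 5, 646, 675, 704 and 905 CPM with shCDC73 hairpin 3 and 1331, 765, 1882 and 830.5 CPM with hairpin 4. The 3 libraries in which short transcripts were read more often held the 3 highest HSPB1 values, 1284, 1331 and 1882 CPM. In Dox the 16 knockdown libraries had 582 to 995 CPM, all above Dox shNTC. HSPB1 was higher than in shNTC cells by 0.52 ± 0.17 (shCTR9) and 0.68 ± 0.18 (shCDC73) in EtOH and by 0.52 ± 0.18 and 0.67 ± 0.18 in Dox (adjusted p = 0.0148, 0.00189, 0.0169 and 0.00264). By single hairpins the EtOH calls held for shCTR9 hairpin 3 (0.72, adjusted p = 0.00357) and shCDC73 hairpin 4 (1.03, adjusted p = 0.000122), the groups with the short-transcript libraries, and did not pass for shCTR9 hairpin 5 (0.32, adjusted p = 0.217) or shCDC73 hairpin 3 (0.32, adjusted p = 0.179). Without the 3 libraries the EtOH value for shCDC73 was 0.37 (adjusted p = 0.0136) and that for shCTR9 0.43 (adjusted p = 0.00370). The shCTR9 call in Dox ended without Dox shNTC replicate 3 or 4 (adjusted p = 0.055 and 0.058) and with hairpin 5 alone (0.45, adjusted p = 0.0867). With Dox, HSPB1 had log2 values of -0.30, -0.29 and -0.31 in shNTC, shCTR9 and shCDC73 cells, none past the threshold (adjusted p = 0.348, 0.148 and 0.133). These HSPB1 values passed without EtOH shCTR9 hairpin 3 replicate 2 in shCTR9 cells (-0.38, adjusted p = 0.0485) and without EtOH shCDC73 hairpin 4 replicate 2 in shCDC73 cells (-0.39, adjusted p = 0.0381). The shNTC value passed when only the groups compared were fitted (-0.29, adjusted p = 0.000801). With hairpin 4 alone HSPB1 fell with Dox in shCDC73 cells (-0.79, adjusted p = 0.00658), and 2 of the 4 EtOH libraries of that hairpin are rich in short transcripts. Without the 3 libraries the Dox values were -0.01 with shCDC73 (adjusted p = 0.955) and -0.21 with shCTR9 (adjusted p = 0.14).

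HSP90AA1, the stress-induced form of cytosolic HSP90, was not past the threshold in any comparison of treatments or knockdowns. It had 1825, 1542, 1477 and 1565 CPM in EtOH shNTC and 1658, 1433, 1636 and 1512 CPM in Dox shNTC. The same 3 libraries held its 3 highest values, 2260.4, 2399 and 2410.5 CPM, against 1224 to 1825 CPM in the other 37. Its log2 fold changes ran from -0.05 to 0.02 over the 7 comparisons of Dox with EtOH and of knockdown with shNTC. Without the 3 libraries HSP90AA1 rose with Dox in shCDC73 cells (0.24, adjusted p = 0.000363) and was lower than in shNTC cells in EtOH for shCTR9 (-0.15, adjusted p = 0.0331) and shCDC73 (-0.27, adjusted p = 0.000135). The cause of the length slope was not tested.

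**Figure D3:**
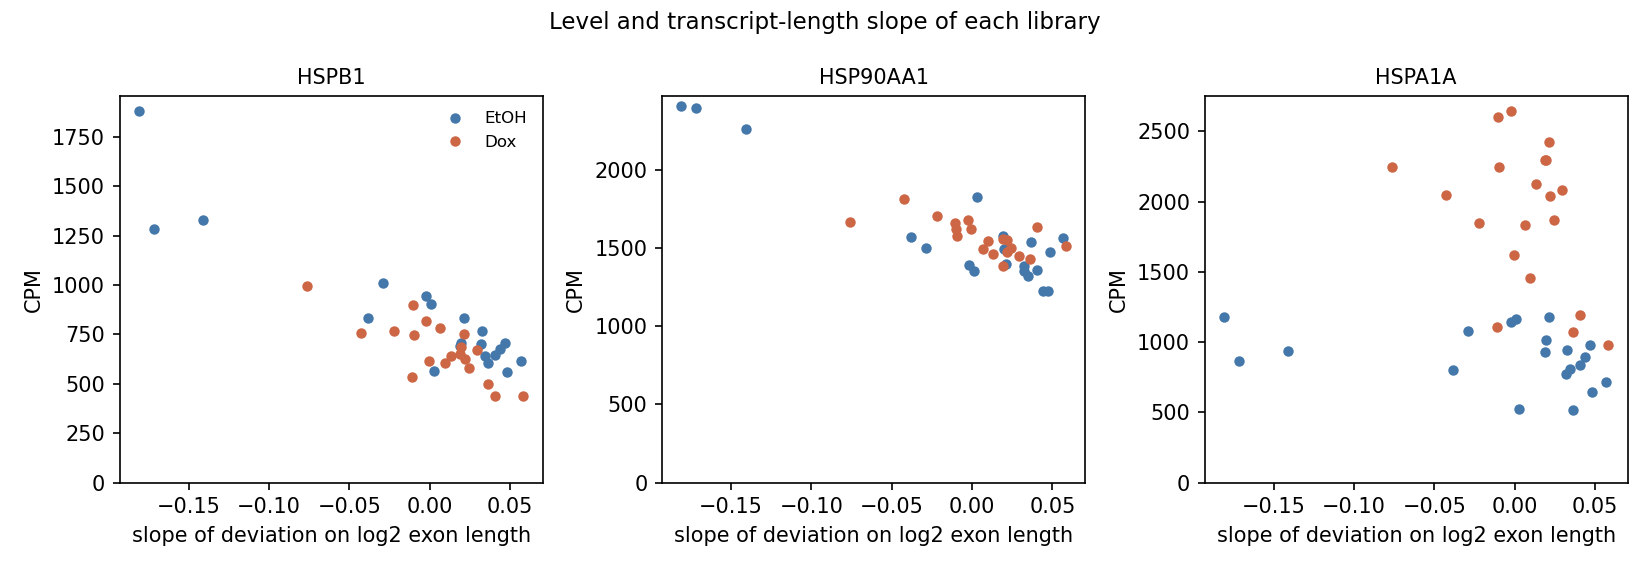
Level (y axis, CPM) of HSPB1, HSP90AA1 and HSPA1A in each of the 40 libraries against the slope of that library's deviation on log2 exon length (x axis; negative values mean that short transcripts were read more often), coloured by treatment. The 3 libraries at slopes of -0.181 to -0.141 hold the highest levels of HSPB1 and HSP90AA1 while for HSPA1A they lie at 866 to 1181 CPM, among other EtOH knockdown libraries.

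HSF1 itself varied least of the 10 genes, with group means of 237 to 293 CPM, a ratio of 1.24. Its libraries had 222, 257, 230.0 and 239.9 CPM in EtOH shNTC and 264, 246, 252 and 222 CPM in Dox shNTC, and 219.5 to 343 CPM in the knockdowns. The values of HSF1 were 0.05 ± 0.10, 0.01 ± 0.07 and 0.03 ± 0.07 for Dox in shNTC, shCTR9 and shCDC73 cells, none past the threshold, with 95% intervals of -0.15 to 0.25, -0.13 to 0.15 and -0.11 to 0.17. For shCTR9 against shNTC HSF1 had 0.17 ± 0.09 in EtOH and 0.12 ± 0.09 in Dox, and for shCDC73 0.12 ± 0.09 and 0.10 ± 0.09, again none past the threshold (adjusted p at least 0.123). The EtOH shCTR9 value of HSF1 passed with hairpin 3 alone (0.30, adjusted p = 0.0139), and also when replicate 2 of EtOH shCTR9 hairpin 3 was left out (0.21, adjusted p = 0.0423). Replicate 1 of that group, which is rich in short transcripts, had its highest HSF1 level, 343 CPM against 234 to 319.7 CPM. Without the 3 libraries rich in short transcripts the EtOH shCTR9 value was 0.11 (adjusted p = 0.207). These are transcript levels, and the activity of the HSF1 protein was not measured.

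With Dox HSPA6, HSPA1A, HSPA1B and BAG3 were called as higher in all 3 cell populations, though the BAG3 call in shNTC cells ended without single libraries. None of the 10 genes was called as lower in any, though the HSPB1 libraries of Dox shNTC all lay below those of EtOH shNTC. All 10 genes passed the filter on low counts, HSPA6 only through its Dox libraries, since its EtOH libraries held 3 to 12 reads. HSPA6 thus entered these counts through the treatment in which it is high. With Dox in shNTC cells 4 of 10 rose and 0 fell, where 17.4% of the 12557 genes tested were called and 8.49% were called as higher. In shCTR9 cells 7 rose and 0 fell, where 18.3% were called and 9.29% as higher, and in shCDC73 cells 7 rose and 0 fell, where 17.5% were called and 9.29% as higher. The median log2 fold change of the 10 genes was 0.07, 0.29 and 0.24, and that of all genes -0.01, -0.02 and -0.02. Between knockdown and shNTC nearly every second gene was called, so the counts there stand closer to the background. For shCTR9 in EtOH 5 rose and 1 fell, where 45.6% of genes were called and 23.2% as higher, and in Dox 6 rose and 0 fell, where 41.8% were called and 21.1% as higher. For shCDC73 in EtOH 5 rose and 1 fell, where 49.0% were called and 24.4% as higher, and in Dox 7 rose and 0 fell, where 44.9% were called and 22.2% as higher. The gene that fell in both EtOH comparisons was HSPA8. The medians of the 10 genes were 0.29 and 0.49 for shCTR9 and 0.37 and 0.56 for shCDC73, in EtOH and Dox, and those of all genes lay between 0.01 and 0.02. The 7 comparisons share the shNTC or EtOH libraries, so their counts are not independent of each other. HSPA1A and HSPA1B are each counted, though their reads split nearly evenly in every library, so they are not independent in these counts and medians. The list was chosen with earlier results of these data known, so the shares of all genes stand beside it as a description.

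**Figure D4:**
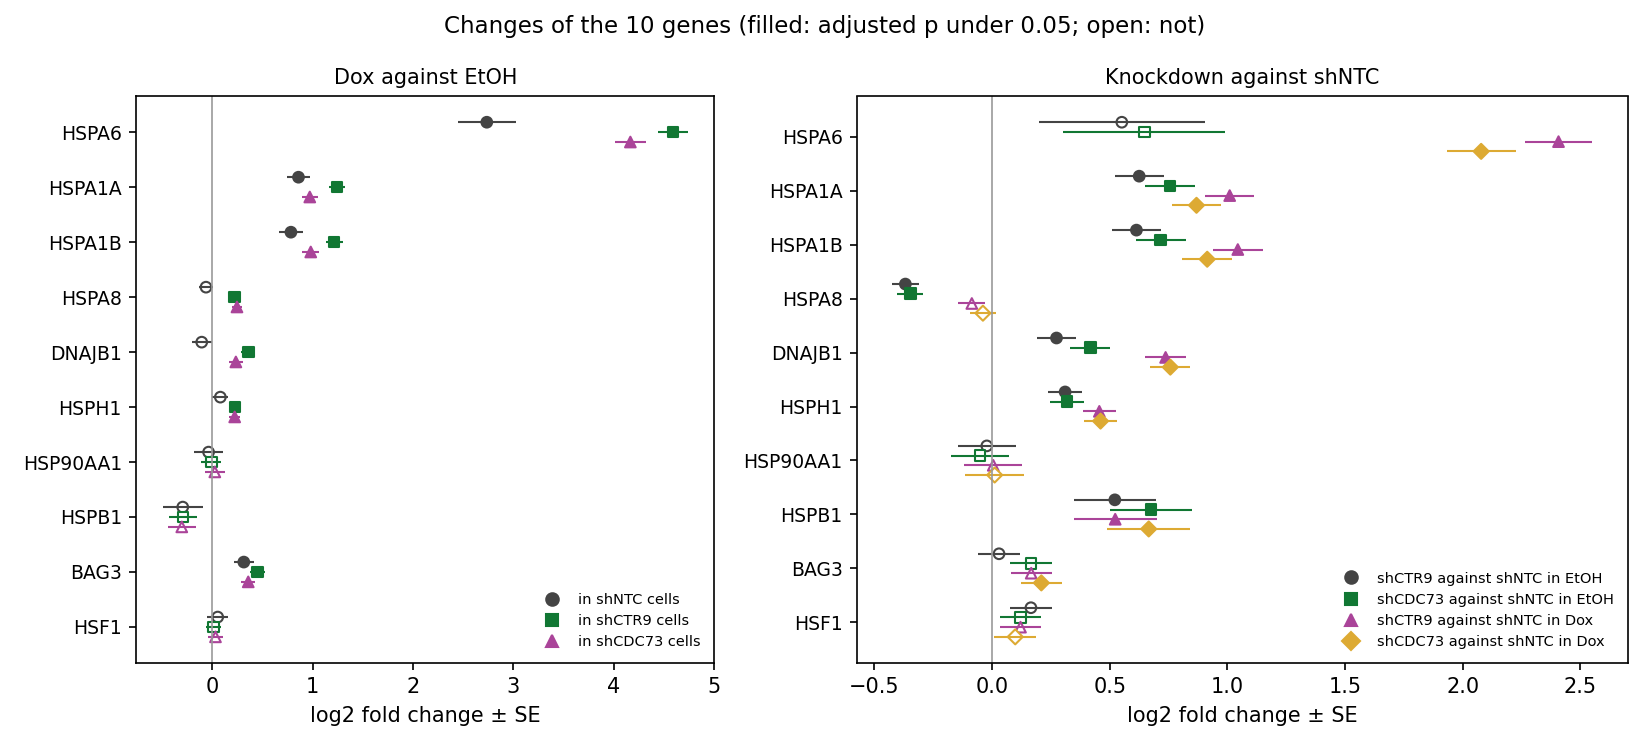
Log2 fold change ± SE (x axis) of each of the 10 genes (y axis), for Dox against EtOH in 3 cell populations (left) and for each knockdown against shNTC in both treatments (right); filled symbols passed an adjusted p of 0.05. HSPA6 reached 4.59 with Dox in shCTR9 cells, while HSF1 and HSP90AA1 have open symbols throughout.

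Whether the Dox response itself differed between knockdown and control was tested as an interaction. For shCTR9, 2 of the 10 genes had a larger response than in shNTC cells, HSPA6 by 1.86 ± 0.43 and DNAJB1 by 0.46 ± 0.12 on the log2 scale (adjusted p = 0.0244 and 0.048), where 0.597% of all genes were called and 0.398% as higher. The HSPA6 difference rests on EtOH shNTC libraries of few reads and ended when replicate 2, 3 or 4 of that group was left out (adjusted p = 0.0831, 0.117 and 0.0586), though HSPA6 was higher in all 8 shCTR9 than in all 4 shNTC libraries in Dox. The DNAJB1 difference ended when any 1 of 18 of the 24 libraries compared was left out (adjusted p between 0.0505 and 0.162). With hairpin 5 alone neither difference passed (adjusted p = 0.151 for HSPA6 and 0.249 for DNAJB1), nor did that of DNAJB1 with hairpin 3 alone (adjusted p = 0.102). For shCDC73, where 0.470% of genes were called, 0 of 10 passed by edgeR, with 3 of 10 at an unadjusted p under 0.05 and 1 past the threshold by DESeq2. The largest of these was HSPA6 at 1.43 ± 0.42 (adjusted p = 0.134, 95% interval 0.60 to 2.26), and with hairpin 3 alone HSPA6 had 1.86 ± 0.46 (adjusted p = 0.0378). For HSPA8 the difference was 0.28 ± 0.08 with shCTR9 and 0.31 ± 0.08 with shCDC73 (adjusted p = 0.0961 and 0.0647), and both passed without the 3 libraries rich in short transcripts (0.26 and 0.28, adjusted p = 0.0454 and 0.033) and with DESeq2 (adjusted p = 0.00887 and 0.00332). In shCDC73 cells the HSPA8 difference also passed without Dox hairpin 4 replicate 2, EtOH hairpin 3 replicate 4 or EtOH hairpin 4 replicate 4 (adjusted p between 0.0423 and 0.0469). For HSPA1A the difference was 0.38 ± 0.14 and 0.11 ± 0.14, with 95% intervals of 0.10 to 0.66 and -0.17 to 0.39. Neither passed in this fit, which leaves replicate numbers out (adjusted p = 0.269 and 0.88). The HSPA1A call for shCTR9 depended on this choice, and the fit with replicate numbers is given with the dependence on processing. MYC had a smaller response in both knockdowns, by -0.78 ± 0.09 and -0.88 ± 0.09 (adjusted p = 3.13e-07 and 9.05e-09), so the higher HSPA6 levels in Dox came with lower MYC levels than in Dox shNTC.

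**Figure D5:**
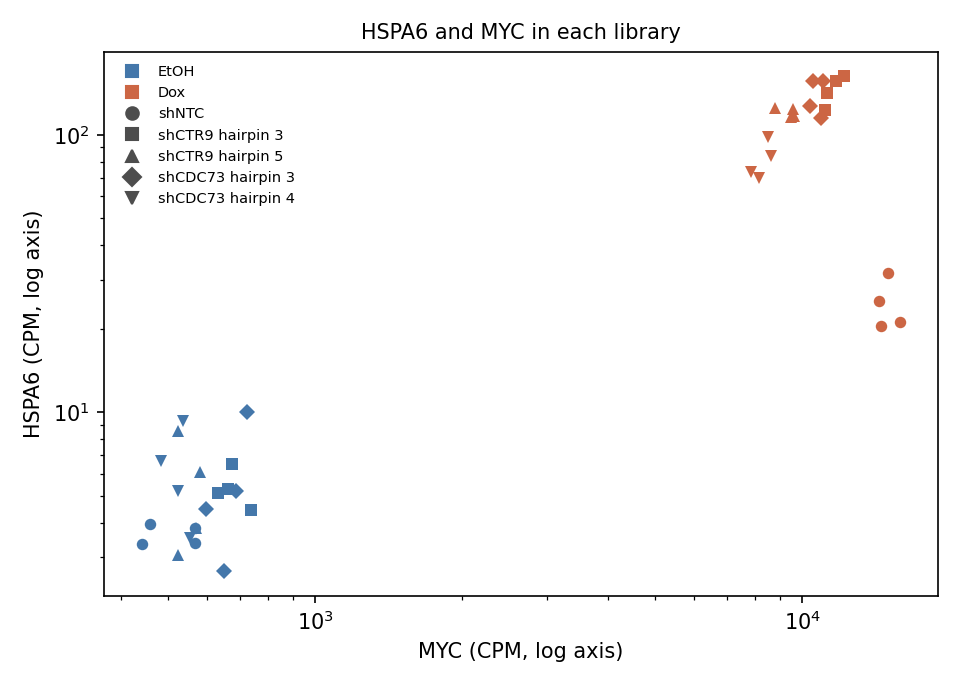
HSPA6 (y axis, CPM, log scale) against MYC (x axis, CPM, log scale) in each of the 40 libraries, by treatment (colour) and hairpin (shape). The Dox shNTC libraries have the highest MYC, 14360.4 to 15856 CPM, with HSPA6 at 20.5 to 31.6 CPM, while the Dox knockdown libraries have MYC at 7854 to 12183 CPM and HSPA6 at 69.6 to 162 CPM.

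Of the 10 genes, some were called between the hairpins against CDC73 and none between those against CTR9. Between CTR9 hairpins 5 and 3, 0 of the 10 genes passed in EtOH (0.589% of genes called) and 0 in Dox (0.279%), by edgeR and by DESeq2 alike, with 2 and 1 at an unadjusted p under 0.05. The HSPA6 difference between them was 0.06 ± 0.38 in EtOH and -0.27 ± 0.13 in Dox, with 95% intervals of -0.69 to 0.80 and -0.52 to -0.02. Between CDC73 hairpins 4 and 3 in Dox, where 13.0% of genes were called and 7.10% as lower, 4 of 10 were lower with hairpin 4 and 0 higher. These were HSPA6 (-0.78 ± 0.14, adjusted p = 5.34e-05), HSPA1A (-0.47 ± 0.12, 0.00406), HSPA1B (-0.43 ± 0.12, 0.00988) and HSPH1 (-0.34 ± 0.08, 0.00263). The HSPA1B call ended without Dox shCDC73 hairpin 4 replicate 2 (adjusted p = 0.0545). HSPA1A and HSPA1B, whose reads split nearly evenly, are not independent of each other in this count either. MYC was lower too with hairpin 4 in Dox, by -0.37 ± 0.07 (adjusted p = 0.000301), and its part in these differences was not tested. In EtOH, where 31.2% were called, HSPH1 was lower with hairpin 4 (-0.45 ± 0.08, adjusted p = 3.52e-05), and HSPA8 (0.24 ± 0.07), HSP90AA1 (0.52 ± 0.14) and HSPB1 (0.71 ± 0.20) were higher (adjusted p = 0.00485, 0.00577 and 0.00658). Replicates 1 and 3 of EtOH shCDC73 hairpin 4 are among the 3 libraries rich in short transcripts, and without these the HSP90AA1 and HSPB1 calls ended (adjusted p = 0.419 and 0.616). Without replicate 3 of this group alone they ended as well (adjusted p = 0.0525 and 0.0802).

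Other genes of the pathway were called in both directions. Of 57 further chaperone, co-chaperone, heat-inducible and HSF-family genes listed, 46 passed the filter on low counts. This list too was chosen with earlier results of these data known. With Dox 8 rose and 4 fell in shNTC cells, 8 rose and 5 fell in shCTR9 cells and 13 rose and 3 fell in shCDC73 cells. Of all genes 8.49%, 9.29% and 9.29% were called as higher, and 17.4%, 18.3% and 17.5% in either direction. With Dox in shNTC cells the smallest p-values belonged to SERPINH1, the collagen chaperone HSP47, which fell by 0.70 ± 0.09, and to HSF2 (0.80 ± 0.15), a second heat shock factor, DNAJA2 (0.47 ± 0.09), a J-domain protein, and CDC37 (0.41 ± 0.09), which brings kinases to HSP90, all 3 higher (adjusted p of the 4 at most 0.00139). In shCTR9 cells they were HSPA1L (1.05 ± 0.18), an HSP70 gene mainly of testis, FKBP4 (0.57 ± 0.12), an HSP90 co-chaperone, SQSTM1 (-0.28 ± 0.06), an autophagy receptor, and DNAJA4 (0.76 ± 0.17), another J-domain protein (adjusted p at most 0.000659). HSPA1L shares 2.51% of the HSPA1A stretches of 50 bases, so some of its reads may be from that gene. In shCDC73 cells they were FKBP5 (0.62 ± 0.11) and FKBP4 (0.66 ± 0.12), which both bind HSP90, HSPA14 (0.34 ± 0.07), an HSP70 protein bound to ribosomes, and DNAJB2 (-0.36 ± 0.08), a J-domain protein that binds ubiquitin (adjusted p at most 0.000634). Of these, FKBP5 (0.41), HSPA14 (0.27) and DNAJB2 (-0.23) missed the threshold with hairpin 3 alone (adjusted p = 0.0843, 0.105 and 0.203). FKBP4 passed in all 29 alternatives in shCDC73 cells (adjusted p at most 0.0197). In shCTR9 cells DNAJA4 missed the threshold with hairpin 5 alone (0.66, adjusted p = 0.0839). In shNTC cells CDC37 missed it once all libraries numbered 2 were dropped (0.31, adjusted p = 0.0613). The median of the 46 genes was 0.12, 0.01 and 0.07, beside medians of all genes of -0.01, -0.02 and -0.02.

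In the knockdowns too, these genes were called in both directions. Of the 46 genes 15 rose and 13 fell for shCTR9 in both treatments, and for shCDC73 19 rose and 13 fell in EtOH and 15 rose and 12 fell in Dox. Of all genes 23.2% and 21.1% were called as higher for shCTR9 and 24.4% and 22.2% for shCDC73, in EtOH and Dox, and 45.6%, 41.8%, 49.0% and 44.9% in either direction. Of the 9 other heat-inducible genes 4 to 7 rose and at most 1 fell in each of these 4 comparisons. Among them IER5, an early response gene whose protein binds HSF1, rose in all 4, with EtOH values of 1.35 ± 0.12 for shCTR9 and 1.58 ± 0.12 for shCDC73 (adjusted p at most 4.93e-13). RGS2, a regulator of G protein signalling, rose by 2.64 ± 0.25 and 2.66 ± 0.23 in shCDC73 cells. Of the 3 tested genes of the HSP90 and chaperonin class, 2 or 3 fell and 0 rose in each comparison. Counts of the other classes are not given here, so these classes are not read as set apart from the rest. HSPA4, an HSP110 relative of HSPH1, had values of -1.02 ± 0.06 and -0.95 ± 0.06 in shCTR9 and of -0.95 ± 0.06 and -0.89 ± 0.06 in shCDC73 cells, opposite in sign to HSPH1 (adjusted p at most 9.27e-17). DNAJA3, the mitochondrial J-domain gene, fell in the same 4 comparisons, with -0.97 ± 0.09 in EtOH and -1.25 ± 0.09 in Dox for shCDC73. PTGES3, the HSP90 co-chaperone p23, had -0.75 ± 0.08 and -0.84 ± 0.08 in shCTR9 cells (adjusted p at most 6.58e-11). For the difference of the Dox response CRYAB, a small heat shock protein gene, passed in shCTR9 (1.42 ± 0.33, adjusted p = 0.021) and SERPINH1 in shCDC73 cells (0.44 ± 0.11, adjusted p = 0.0454). The CRYAB call ended when any 1 of 4 of 24 libraries was left out (adjusted p between 0.0586 and 0.0859). It also ended with hairpin 5 alone (1.27, adjusted p = 0.243). The SERPINH1 call ended when any 1 of 18 of 24 was left out (adjusted p between 0.0558 and 0.166). It held with hairpin 3 alone (0.69, adjusted p = 0.00158) and ended with hairpin 4 alone (0.19, adjusted p = 0.573). In shCTR9 cells SERPINH1 had a similar difference, 0.43 ± 0.11, just short of the threshold (adjusted p = 0.0501). That value passed without the 3 libraries rich in short transcripts (0.41, adjusted p = 0.0083) and with DESeq2 (adjusted p = 0.0382).

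Across the 10 group means HSPA6 had the highest correlations within the list with BAG3 (Pearson's r = 0.956), HSPA1B (0.952) and HSPA1A (0.951), against 0.280 with HSF1. HSPA8 and HSPB1 ran most against each other (r = -0.536). The groups with the highest HSPB1 means hold the libraries rich in short transcripts, and this r was not computed without those libraries. Among tested genes whose mean level reached 2 CPM, the group means most like those of HSPA6 were those of VDR (r = 0.979), LINC01060 (0.968), TNN (0.966), TAL1 (0.965) and NES (0.964). Those most like DNAJB1 were NANOS1 (0.981), NHERF1 (0.975), OSR2 (0.970), DGAT1 (0.968) and C1QL4 (0.968). These correlations describe 10 groups that share libraries of 1 experiment, and they are given without a test.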

How the data were processed

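In all, 40 RNA sequencing libraries of U2OS cells were analysed from the raw read counts per Ensembl gene that the authors deposited, 1 file per library. Per the submitters' processing notes, Bowtie, HISAT2 and edgeR were used with build hg19; what each did, its version, the strand setting and how reads with several matches were treated is not given in the sources used here. Of 63545 entries, 393 LRG entries held 0 reads and were left out. Library totals were 877323 to 1532617 reads, which limits genes of few reads such as HSPA6 in EtOH.

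Genes kept by filterByExpr (minimum count 10, minimum total 15) numbered 12557. They were tested with the quasi-likelihood test of edgeR 4.0.16 in R 4.3.3, with 1 mean for each of the 10 groups in a single fit of all 40 libraries, TMM scaling and Benjamini-Hochberg adjustment at 0.05; the test was first tested on simulated data. Knockdown contrasts average the hairpins against a target, and the SE was taken as the size of the log2 change over the root of its F statistic. The labels do not say whether replicates were separate cultures, so p-values measure the spread between these libraries, which may be technical. Groups came from the sample titles. Alternatives were DESeq2 1.42.0 and its size factors, no filter, raw totals, summed near-identical genes, single hairpins, only the groups compared, a replicate block and libraries left out. Named genes were the 10 genes, MYC, CTR9 and CDC73, and the 4 genes of smallest p per comparison among 57 listed pathway genes. Of these 4, genes of hairpin comparisons and uncalled genes other than SERPINH1 are not described. For HSPA6 and DNAJB1 the 5 genes of highest correlation over group means are named too. The genes and lists were chosen with earlier results of these data known. Shared stretches were computed from GENCODE v29 and promoters taken from RefSeq, with Python 3.11.15 and Biopython 1.88.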

Additional observations from a re-analysis of the deposited data

Results flagged for a closer look

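In 8 of 100 sets of 4 libraries, 1 for each gene and group, a single library stood apart from the other 3 by a gap that took up most of the whole range (Dixon's test at the 95% level), which chance gives in about 1 of 20 sets. HSP90AA1 was at 2398.8 CPM in EtOH shCTR9 hairpin 3 replicate 1 against 1319 to 1503 in the others, and this is a library rich in short transcripts. HSPB1 was at 835 CPM in EtOH shCTR9 hairpin 5 replicate 1 against 692 to 704. HSPA1B was at 2719.9 CPM in Dox shCTR9 hairpin 3 replicate 3 against 2172 to 2259. HSPA8 was at 3042 CPM in EtOH shNTC replicate 2 against 3228 to 3266. HSPH1 was at 619 CPM in Dox shCDC73 hairpin 3 replicate 1 against 771 to 791, and at 598 CPM in EtOH shCDC73 hairpin 3 replicate 2 against 675 to 690.2. BAG3 was at 207 CPM in Dox shCDC73 hairpin 3 replicate 2 against 235 to 241, and at 149 CPM in EtOH shCTR9 hairpin 5 replicate 2 against 156 to 158.

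Of 20 tests of a different Dox response in knockdown and control cells, 2 passed by edgeR, both for shCTR9. The response of HSPA6 was larger by 1.86 (adjusted p = 0.0244) and that of DNAJB1 by 0.46 (adjusted p = 0.048) on the log2 scale.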

How the results depend on the processing

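Of 4525 recomputed values of single genes, 4361 stayed on the same side of the threshold, 128 calls ended, 36 were gained and 0 called values changed sign. The counts for the 7 comparisons of Dox with EtOH and of knockdown with shNTC stayed within 1.5 times the count given. For the different Dox response in shCTR9 cells the 2 calls became 1 with no filter on low counts, 1 with hairpin 3 alone, 0 with hairpin 5 alone, and 0 to 2 with libraries left out. For shCDC73 cells the 0 calls became 1 without the 3 libraries rich in short transcripts, 1 with DESeq2, 2 with hairpin 3 alone, and 0 to 1 with libraries left out. Between CDC73 hairpins in EtOH the 4 calls became 2 without those 3 libraries, 1 with only the groups compared, and 2 to 4 with libraries left out. The cause was not tested.

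Of 180 pairs of libraries with the same replicate number in different groups, 42 had deviations correlated over 0.1 (median 0.0454). Of 540 pairs with other numbers 35 did (median -0.0121). Same-numbered libraries were thus more often alike, though most such pairs fell short of 0.1. The labels do not state a pairing, so the numbers are not taken as pairing the samples, and the block is given as an alternative. That 28 of 40 libraries correlated best with their own number is a hint from the data, not from the design. The replicate block moved the calls for the different Dox response from 2 to 5 in shCTR9 cells, adding HSPA1A (adjusted p = 0.0254), HSPA1B (0.0117) and HSPA8 (0.0251), and from 0 to 1 in shCDC73 cells, adding HSPA8 (0.0124).

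Pathway counts moved more: with Dox 4 to 12, 4 to 12 and 5 to 20 of the listed genes rose in shNTC, shCTR9 and shCDC73 cells over the alternatives. Depth limits HSPA6 in EtOH, which rests on 3 to 12 reads per library.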
